A study of Mus musculus with 6 samples.

Results

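The heat shock proteins and their DnaJ co-chaperones were followed in RAW 264.7 cells, a mouse macrophage line, after 48 h with lipopolysaccharide (LPS, 100 ng/ml) and LPS-binding protein (LBP, 100 pM). LPS is a glycolipid of the bacterial outer membrane, and LBP carries it from serum to the receptors of macrophages. Untreated RAW 264.7 cells kept for the same 48 h were the comparison. Members were the probes whose gene symbol in the platform annotation began with Hspa, Hspb, Hspd, Hspe, Hsph, Hsp90 or Dnaj, without Hspa5. The rule found 66 of 16281 probes, for 52 of 10698 genes with a symbol. The data were 6 two-colour arrays, each of which held treated and untreated RNA together. Treated RNA was in Cy5 on 3 arrays (sets 1, 2 and 3) and in Cy3 on the other 3 (sets 1, 2 and 3). All cells belong to 1 line, the labels do not say that the sets came from separate cultures, and the p-values measure only the spread between sets, which may be technical.

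Heat shock proteins are chaperones: they hold or refold proteins that have lost their shape. HSP70 proteins bind exposed stretches of a client in a cycle driven by ATP, and DnaJ proteins, also called HSP40, bring clients to HSP70 and start its ATP hydrolysis through their J domain. HSP90 completes the folding of kinases and receptors, HSP60 and its lid HSP10 form the folding chamber of mitochondria, and small HSPs keep unfolded proteins from clumping. Many of these genes carry heat shock elements, the binding sites of the transcription factor HSF1, and are switched on together by heat and other protein damage. In macrophages, chaperones also serve the folding of secreted and membrane proteins made during activation.

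Values are log ratios of treated over untreated cells, read as log2. No source used here gives the base of the logarithm, and fold changes assume base 2. Where 6 values are given, the first 3 are sets 1, 2 and 3 with treated RNA in Cy5 and the last 3 are sets 1, 2 and 3 with treated RNA in Cy3, the latter with the sign turned. A mean ± SD is over the 3 set means (n = 3), each of which averages both dye orientations. Values of exactly 0 were treated as missing, and the 53 member probes (44 genes) with a value on all 6 arrays were tested with limma over 12724 probes. A probe passed with an adjusted p under 0.05. Intervals are 95% intervals of limma's moderated estimate.

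Of the 53 probes tested, 5 were higher and 6 were lower in treated cells, which is 9.43% and 11.3% of them. Over all probes tested, 14.8% were higher and 12.2% were lower (27.1% in either direction). In either direction 20.8% of members passed, near that background and with no test between the shares, and 15 members (28.3%) had an unadjusted p under 0.05, against 38.3% of all probes. The members' median log2 ratio was -0.03 and that of all probes -0.01, and the median of the absolute values was 0.15 for members and 0.16 for all probes, so the members moved about as much as the typical probe. No member reached a 2-fold change, and 2 (3.77%) reached 1.5-fold, against 9.64% of all probes. With at least 1.5-fold required beside the adjusted p, the same count of 2 members passed, against 9.53% of all probes. Per gene, 4 members were higher and 4 lower of 44 tested, against 26.1% of all genes in either direction. With zeros kept as values, 4 of the 66 probes were higher and 0 lower by limma, against 5.55% higher, 3.1% lower and 8.64% in either direction over all probes. Probes tested in the main fit held no zero, so their values and means were the same in both fits. Only what limma shares over all probes differed, with prior degrees of freedom of 6.334 in the main fit and 0.7595 with zeros kept. A call lost with zeros kept, here and below, therefore reflects no zero of that probe. The 2 members past 1.5-fold were both probes of Dnajb4, the highest members, and 498 of the probes tested lay above them. All 42 members that did not pass had an interval inside a 2-fold change in either direction, and 39 had one inside 1.5-fold. The other 3 were both probes of Dnajb9 and 1 probe of Dnajb6.

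**Figure D1:**
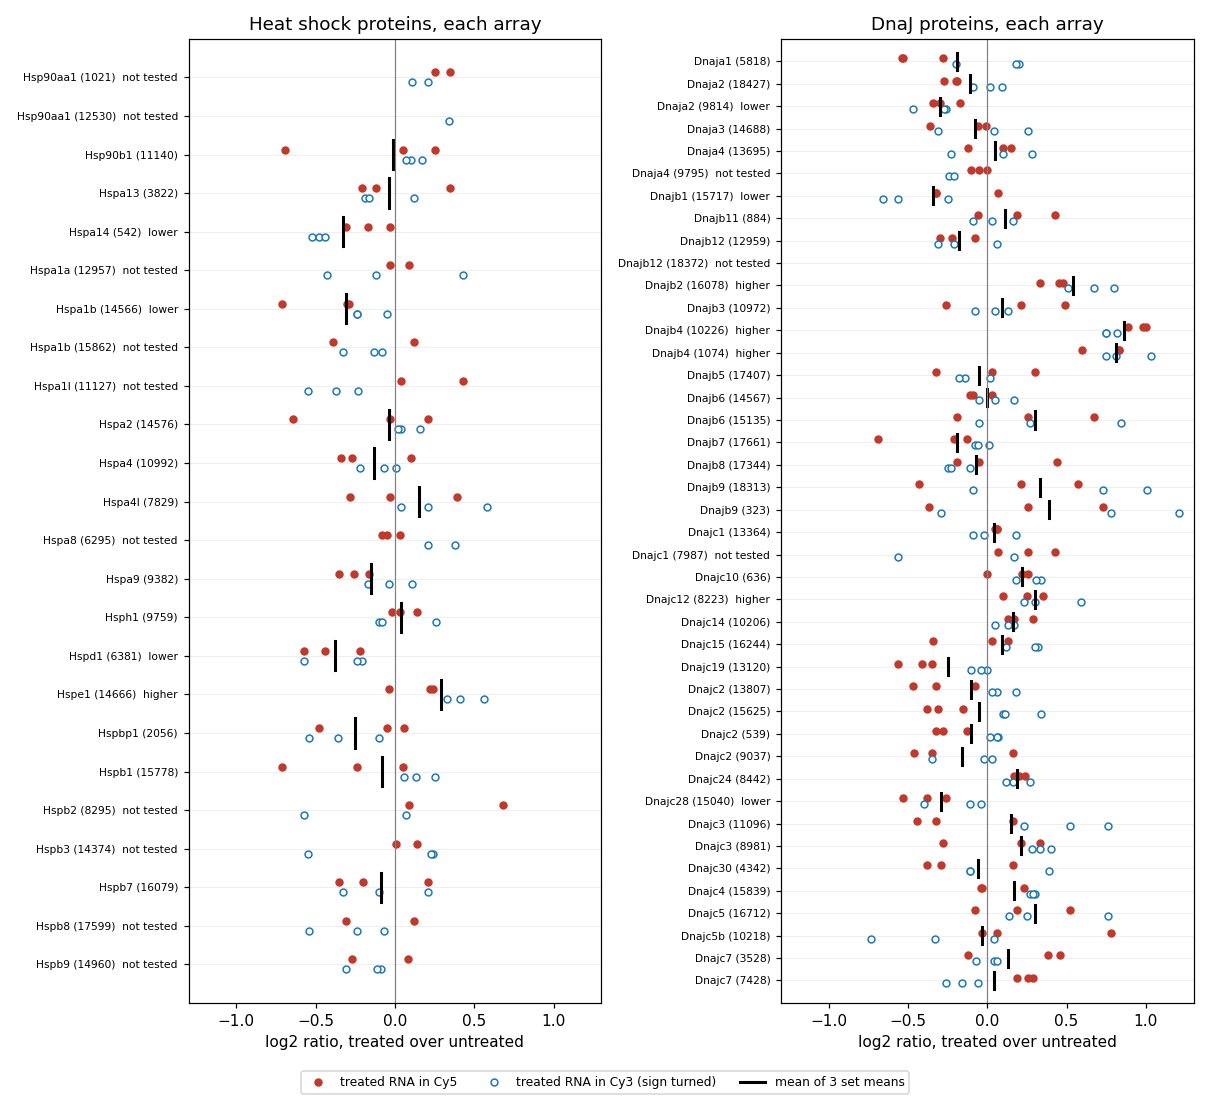
Log2 ratio of treated over untreated cells (x axis) on each array for the 66 member probes (y axis, gene and probe number), filled points for treated RNA in Cy5, open points for treated RNA in Cy3, and a bar at the mean of 3 set means where all 6 arrays had a value. The 12 points of the 2 Dnajb4 probes lie between 0.60 and 1.03, and most other members straddle 0.

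**Figure D2:**
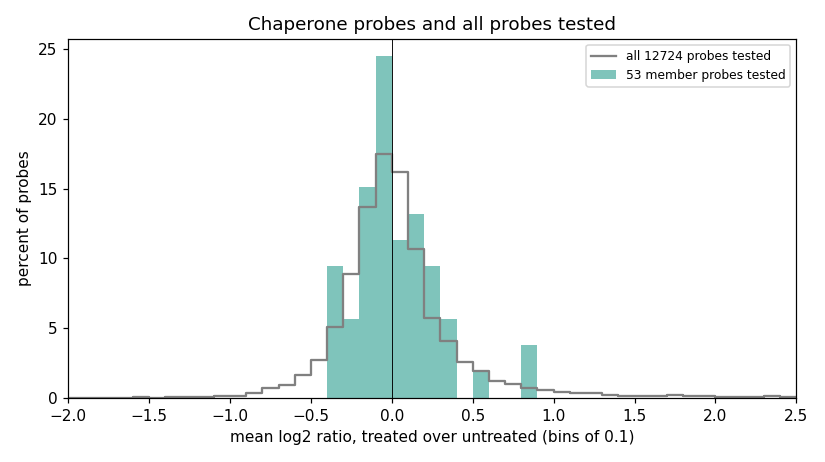
Percent of probes (y axis) by mean log2 ratio in bins of 0.1 (x axis), as bars for the 53 member probes tested and as a line for all 12724 probes tested. Members lie between -0.38 and 0.86, while the line has tails on both sides.

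As facts of the whole series, between 7.97% and 17.8% of the values on an array were 0. The 9 probes of Il1b, Il6, Nos2 and Tnf, which LPS is known to induce, were higher on all 6 arrays, which bears on the sign of the ratio. Of 10 tested probes for macrophage markers, Adgre1 (0.94 ± 0.09) and Fcgr1 (1.96 ± 0.15) rose and Csf1r fell by 0.53 ± 0.22. Of 24 tested probes for markers of other cell types, 2 rose, the fibroblast proteoglycan Dcn (2.68 ± 0.95) and the B cell receptor chain Cd79a (0.63 ± 0.11), and their part in the results below was not tested. The T cell marker Cd8a read differently on its probes. Probe 112 averaged 0.06 ± 0.09 and did not pass (limma, adjusted p = 0.662). Probe 18482 could be tested only when 2 complete sets sufficed, and was lower there (-1.27, limma, adjusted p = 0.000133). The ratios hold no levels, so the labelled cell type could not be checked against absolute marker levels. In a ratio of pooled RNA, fewer cells of a type and less RNA per cell cannot be told apart.

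The DnaJ B proteins held the members with the highest ratios. Of their 14 tested probes, for 11 genes, 3 (for 2 genes) were higher and 1 was lower, and the median was 0.10. Over all probes tested, 14.8% were higher and 12.2% lower, and these shares are the background for each group below. Dnajb4 and Dnajb2 rose, and Dnajb1 fell.

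Dnajb4, a cytosolic J protein that works with HSP70, was measured by 2 probes. Probe 10226 read 1.00, 0.89, 0.98, 0.82, 0.75 and 0.75, and probe 1074 read 0.83, 0.60, 0.83, 0.81, 1.03 and 0.75. All 12 values were above 0, and the probes' means lay 0.05 apart. Dnajb4 rose 1.82-fold by probe 10226 (0.86 ± 0.04, limma, adjusted p = 0.000168) and 1.75-fold by probe 1074 (0.81 ± 0.02, limma, adjusted p = 0.000228). Both probes passed in all 16 other settings of the fit over probes, with adjusted p from 1.38e-05 to 0.0232.

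Dnajb2, a J protein with ubiquitin-binding motifs that passes HSP70 clients to the proteasome, read 0.48, 0.33, 0.45, 0.80, 0.51 and 0.67. It was above 0 on every array and rose 1.45-fold (0.54 ± 0.11, limma, adjusted p = 0.00282). Its call also held in all 16 other settings (limma, adjusted p = 0.000403 to 0.0457).

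Dnajb1, the main stress-inducible HSP40 of the cytosol and a textbook target of HSF1, moved the other way. It read -0.32, -0.32, 0.07, -0.66, -0.56 and -0.25, below 0 on 5 of 6 arrays. The mean was -0.34 ± 0.22 (limma, adjusted p = 0.0424), or 0.79 of the untreated level. The call was lost without set 1 (adjusted p = 0.179) or set 2 (0.182), without the treated-in-Cy5 array of set 1 (0.051) or set 2 (0.0605), and without the treated-in-Cy3 array of set 1 (0.0822), set 2 (0.138) or set 3 (0.198). It was also lost with zeros kept as values (limma, adjusted p = 0.178) and with the arrays scaled (0.0529).

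Dnajb9, a J protein of the endoplasmic reticulum that helps HSP70 there to release and degrade misfolded proteins, differed between sets more than between dyes. Probe 323 read 0.73, 0.26, -0.37, 1.21, 0.78 and -0.29, and probe 18313 read 0.57, 0.21, -0.43, 1.01, 0.73 and -0.09. On both probes sets 1 and 2 were above 0 in both orientations and set 3 was below 0 in both. The means, 0.39 ± 0.66 and 0.33 ± 0.54, did not pass (limma, adjusted p = 0.206 and 0.196), and only 0.534% and 1.14% of all tested probes had a larger SD between sets. Without set 3 the means were 0.74 and 0.63 and both passed (limma, adjusted p = 0.00171 and 0.00344). Leaving out the only set below 0 favours passing, so no rise is read from it. Without set 1 the means were 0.09 and 0.11, and without set 2 they were 0.32 and 0.27. None of these passed (limma, adjusted p = 0.486 to 0.739). The annotation gives these probes the same source sequence, so they are not independent measurements of the gene.

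Both probes of Dnajb9 and 1 of Dnajb6 had the 3 largest SDs between sets among tested members, and were picked for that. Dnajb6, a J protein that prevents aggregation of glutamine-rich proteins, had probes that read differently. Probe 15135 read 0.67, 0.26, -0.19, 0.84, 0.27 and -0.05, the same order of sets as in Dnajb9, and averaged 0.30 ± 0.44 (limma, adjusted p = 0.182). It passed without set 3, its only set below 0, at 0.51 (limma, adjusted p = 0.0197), and no rise is read from that. Probe 15135 did not pass without set 1, at 0.07, or set 2, at 0.32 (limma, adjusted p = 0.761 and 0.337). Probe 14567 read -0.09, -0.11, 0.03, 0.17, 0.05 and -0.05 and averaged 0.00 ± 0.04.

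**Figure D3:**
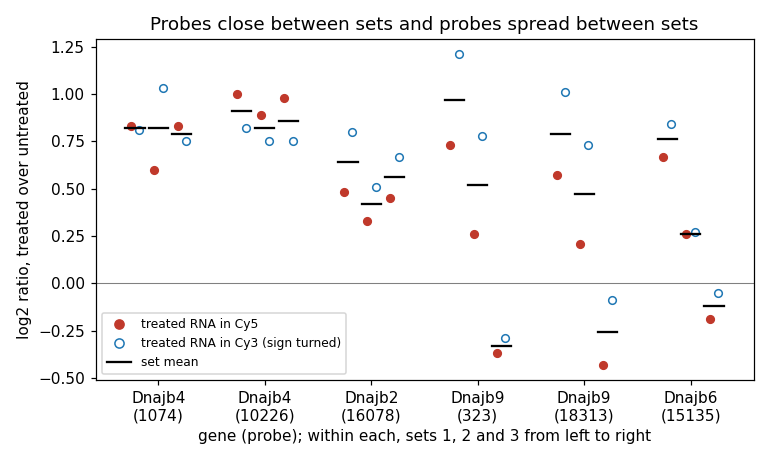
Log2 ratio of treated over untreated cells (y axis) for 6 probes of Dnajb4, Dnajb2, Dnajb9 and Dnajb6 (x axis), with sets 1, 2 and 3 from left to right in each, points for single arrays and bars for set means. The set means of Dnajb4 lie between 0.79 and 0.91, whereas those of Dnajb9 probe 323 run from 0.97 in set 1 to -0.33 in set 3.

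The remaining DnaJ B members did not pass. Dnajb11, which binds nascent chains in the endoplasmic reticulum, read -0.06, 0.19, 0.43, -0.09, 0.16 and 0.03 and averaged 0.11 ± 0.16. The means of Dnajb3, Dnajb5, Dnajb7, Dnajb8 and Dnajb12 (probe 12959) lay between -0.19 and 0.09. A further probe of Dnajb12 was listed at 0 on all 6 arrays.

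Among DnaJ A proteins, the closest relatives of the bacterial DnaJ, 1 of 5 tested probes was lower and 0 were higher in the limma fit. Of all probes tested 12.2% were lower and 14.8% higher. In this group 1 probe had an unadjusted p under 0.05, and the median was -0.11. Dnaja2, a cytosolic partner of HSP70 in refolding, read -0.17, -0.34, -0.30, -0.26, -0.27 and -0.47 on probe 9814. All 6 values were below 0, and the mean was -0.30 ± 0.08 (limma, adjusted p = 0.0338), 0.812 of the untreated level. Its other probe, 18427, read -0.20, -0.19, -0.27, 0.09, -0.09 and 0.02 and averaged -0.11 ± 0.05 without passing. With both probes averaged, Dnaja2 was at -0.20 and did not pass (limma, adjusted p = 0.102). The call of probe 9814 was lost without set 1, 2 or 3 (adjusted p = 0.0622, 0.109 and 0.149), without any 1 array (0.0516 to 0.115), and with zeros kept (0.0629).

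Dnaja1, a farnesylated cytosolic J protein, read -0.28, -0.54 and -0.53 on the arrays where treated RNA carried Cy5 but 0.20, 0.18 and -0.20 on the others. Its mean of -0.19 ± 0.17 did not pass (limma, adjusted p = 0.174). Dnaja3, a mitochondrial J protein, read -0.06, -0.36, -0.01, 0.26, -0.31 and 0.04 and averaged -0.08 ± 0.23. Dnaja4 averaged 0.05 ± 0.15 on its probe with 6 values, while its other probe, without the treated-in-Cy3 array of set 2, read 0.00, -0.05, -0.10, -0.24 and -0.21. That probe was at -0.14 when 2 complete sets sufficed, the gene was at -0.05 with both probes averaged, and neither value passed.

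DnaJ C proteins share little beyond the J domain and carry HSP70 to particular places or clients. Of 20 tested probes for 15 genes, 1 was higher and 1 lower, against 14.8% and 12.2% of all probes tested, with a median of 0.07. Dnajc12, a partner of the aromatic amino acid hydroxylases, read 0.35, 0.10, 0.25, 0.23, 0.59 and 0.30. It was above 0 on all arrays and rose 1.24-fold (0.30 ± 0.03, limma, adjusted p = 0.0285). That call was lost without set 1, 2 or 3 (adjusted p = 0.09, 0.107 and 0.0778), without the treated-in-Cy5 array of set 1 (0.0726) or set 3 (0.0505), and without the treated-in-Cy3 array of set 2 (0.205) or set 3 (0.0904).

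Dnajc28 read -0.26, -0.38, -0.53, -0.11, -0.40 and -0.04. The gene fell by 0.29 ± 0.10 on the log2 scale, with all 6 arrays below 0 (limma, adjusted p = 0.0429). This call was lost without set 1, 2 or 3 (adjusted p = 0.0667, 0.169 and 0.119), with zeros kept (0.082) and with the arrays scaled (0.0545). It was also lost without the treated-in-Cy5 array of set 1, 2 or 3 (adjusted p = 0.11, 0.0808 and 0.22) or the treated-in-Cy3 array of set 2 or 3 (0.115 and 0.0646).

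Some members kept 1 sign on all 6 arrays without passing. They were Dnajc10, a J protein and disulfide reductase of the endoplasmic reticulum (0.22 ± 0.05, limma, adjusted p = 0.0928), Dnajc14 (0.16 ± 0.07), Dnajc24, which takes part in diphthamide synthesis (0.19 ± 0.05), and Dnajc19, a part of the motor that pulls proteins into mitochondria (-0.25 ± 0.08, limma, adjusted p = 0.0685). The last reads as 0.00 to 2 decimals on 1 array, and so does Dnajc10. In all, 13 of 53 members (24.5%) had 1 sign throughout, 9 of them among the 11 that passed, against 30.2% of all tested probes.

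Dnajc3, which restrains the kinase PERK and helps folding in the endoplasmic reticulum, had 2 probes. Probe 8981 read 0.21, -0.28, 0.33, 0.40, 0.33 and 0.28 and averaged 0.21 ± 0.16. Probe 11096 read 0.16, -0.32, -0.44, 0.76, 0.52 and 0.23, lower in Cy5 than in Cy3 in each set, and averaged 0.15 ± 0.29. Neither probe passed (limma, adjusted p = 0.141 and 0.385).

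Dnajc2 works on the ribosome together with Hspa14, an HSP70 that binds there as its partner. Hspa14 read -0.31, -0.17, -0.03, -0.48, -0.52 and -0.44, below 0 on all arrays. It fell by 0.33 ± 0.08 on the log2 scale, to 0.798 of the untreated level (limma, adjusted p = 0.0246). All 4 probes of Dnajc2 had means below 0, from -0.16 to -0.05, and did not pass, and 3 of them had opposite signs in the 2 orientations. The Hspa14 call was lost without set 1 (adjusted p = 0.114) or set 2 (0.094), without the treated-in-Cy3 array of set 2 (0.14) or set 3 (0.176), and with zeros kept (0.0563).

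None of the classical inducible HSP70 genes passed as higher. Hspa1a and Hspa1b, which encode almost the same protein and whose probes may each detect both transcripts, are the textbook markers of the heat shock response. Hspa1b read -0.29, -0.71, -0.30, -0.05, -0.24 and -0.24 on probe 14566, all below 0. Its mean was -0.31 ± 0.16 (limma, adjusted p = 0.0441), or 0.809 of the untreated level.

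The other probe of Hspa1b, 15862, had no value on the treated-in-Cy5 array of set 3 and read 0.12, -0.39, -0.08, -0.33 and -0.13 on the others. Both probes share a source sequence in the annotation, and averaged per gene Hspa1b was at -0.25 and did not pass (limma, adjusted p = 0.0954). Probe 14566 also lost its call without set 2 (adjusted p = 0.195) or set 3 (0.0936), without the treated-in-Cy5 array of set 1, 2 or 3 (0.134, 0.147 and 0.0836), without the treated-in-Cy3 array of set 2 or 3 (0.104 and 0.0967), with zeros kept (0.132) and with the arrays scaled (0.0512). Hspa1a lacked the same array and read -0.03, 0.09, -0.12, -0.43 and 0.43. Hspa1l, the testis-enriched neighbour of both, read 0.43 and 0.04 in Cy5 and -0.23, -0.55 and -0.37 in Cy3, above 0 in one orientation and below 0 in the other. None of these 3 incomplete probes passed when 2 complete sets sufficed (limma, adjusted p = 0.402 to 0.718).

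The other HSP70 relatives did not pass or could not be tested. Hspa8, the constitutive HSP70 of the cytosol, read 0.03, -0.08 and -0.05 in Cy5 and 0.21 and 0.38 in Cy3, with set 1 missing there. Hspa4 and Hspa4l belong to the HSP110 group, which recharges HSP70 with ATP. Hspa4 read -0.27, -0.34, 0.10, -0.22, -0.07 and 0.01 (-0.13 ± 0.16), and Hspa4l read 0.39, -0.28, -0.03, 0.58, 0.04 and 0.21 (0.15 ± 0.31). Hsph1, the inducible member of that group, read 0.03, -0.02, 0.14, -0.10, -0.08 and 0.26 and averaged 0.04 ± 0.14, with an interval from -0.17 to 0.25. That interval lies inside a 1.5-fold change in either direction, but it measures only the spread between sets, which may be technical.

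Hspa13, an HSP70-like protein of microsomes, read -0.12, 0.35, -0.21, -0.19, -0.16 and 0.12 (-0.04 ± 0.12). Hspa2, the germ cell HSP70, averaged -0.04 ± 0.25. Hspbp1, which strips nucleotide from HSP70 and was picked up by the symbol rule, averaged -0.25 ± 0.21 (limma, adjusted p = 0.112). In the HSP70 family as a whole 7 probes were tested, 2 were lower and 0 higher by limma (2 had an unadjusted p under 0.05), and the median was -0.13. The shares over all probes tested were 12.2% lower and 14.8% higher.

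The genes of the mitochondrial chaperonin passed in opposite directions. Hspd1, which encodes HSP60, read -0.57, -0.44, -0.22, -0.57, -0.21 and -0.24 and fell by 0.38 ± 0.18 on the log2 scale, to 0.771 of the untreated level (limma, adjusted p = 0.0222). Hspe1, which encodes its lid HSP10, read 0.22, 0.24, -0.04, 0.56, 0.33 and 0.41 and rose 1.22-fold (0.29 ± 0.10, limma, adjusted p = 0.0428). Hspd1 was the lowest of all tested members, below 0 on all 6 arrays, and Hspe1 was above 0 on 5. The Hspe1 ratio exceeded that of Hspd1 on all 6 arrays, by 0.18 to 1.13 and on average by 0.66 ± 0.28 (n = 3 sets). That difference is a description of a pair picked after the values were known, and was not tested.

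These genes lie head to head, and their promoter windows in RefSeq (GRCm38.p6, 250 bases before to 50 after each start) overlap by 285 bases on opposite strands. The stretch is shown because both members that moved apart share it. Capitals mark 18 bases that hold 2 overlapping matches to the heat shock element, searched on both strands as 3 alternating units with 2 free bases between neighbours (GAA, TTC, GAA, or TTC, GAA, TTC). For Hspe1 the 200 bases before its start, at chr1:55087948-55088147 on the plus strand, are
Hspe1: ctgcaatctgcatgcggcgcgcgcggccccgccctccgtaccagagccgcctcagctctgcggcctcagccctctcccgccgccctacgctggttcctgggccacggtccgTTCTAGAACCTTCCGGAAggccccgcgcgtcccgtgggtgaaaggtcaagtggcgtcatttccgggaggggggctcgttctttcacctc
The capitals run from base -89 to -72 before the Hspe1 start, and the same bases, read on the minus strand, from -144 to -127 before a start of Hspd1. A match describes letters in a window and is no sign of binding.

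**Figure D4:**
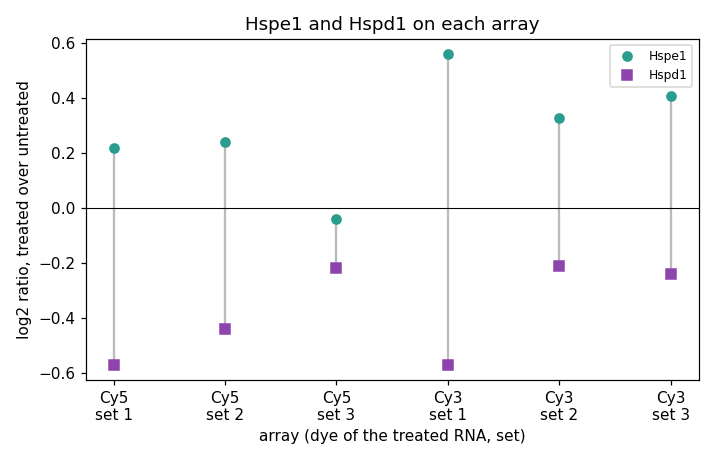
Log2 ratio of treated over untreated cells (y axis) of Hspe1 (circles) and Hspd1 (squares) on each of the 6 arrays (x axis, dye of the treated RNA and set), joined by a line. The circle is above the square on every array, by 0.18 to 1.13.

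The call of Hspe1 was lost without set 1, 2 or 3 (adjusted p = 0.203, 0.125 and 0.062), without the treated-in-Cy5 array of set 1 or 2 (0.0556 and 0.0726), without the treated-in-Cy3 array of set 1, 2 or 3 (0.0914, 0.128 and 0.27) and with zeros kept (0.0845). That of Hspd1 was lost without set 1 or 2 (adjusted p = 0.132 and 0.0756), without the treated-in-Cy5 array of set 2 (0.0713), without the treated-in-Cy3 array of set 2 or 3 (0.0509 and 0.0654) and with zeros kept (0.116).

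Over all members the element was found in the windows of 4 of the 42 genes whose RefSeq windows were used, against 179 of 27025 genes over all promoters. Besides Hspe1 and Hspd1 these were Dnajb6 and Hsph1, neither of which passed. By window, 6 of 56 (10.7%) held a match, against 0.603% of 32851, but the 6 are not separate sites. Hspe1 and Hspd1 share a stretch. Both windows of Dnajb6 overlap and hold the same site, as do both of Hsph1. The matches of Dnajb6 and Hsph1 are shown for comparison with the shared one, in capitals and with 8 bases on each side, at chr5:29735844-29735872 (plus strand) and chr5:149636280-149636308 (minus strand, after the start).
Dnajb6: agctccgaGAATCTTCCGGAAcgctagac
Hsph1: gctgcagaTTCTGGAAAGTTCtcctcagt
Genes with this form of the element therefore included 1 that rose, 1 that fell and 2 that did not pass. The windows of Dnajb1, Hspa1a and Hspa1b, named above as textbook heat shock genes, held no match. The search therefore does not pick out all members with heat shock elements. The interferon-type pair of GAAA units with 2 free bases between them (TTTC on the other strand) occurred in 0 of the 56 member windows and in 3.44% of all windows. No match says only that these letters are not in these 300 bases.

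Besides Hspd1, Hspe1 and Dnajc28, described above, no mitochondrial member passed. Hspa9, the HSP70 that drives import into mitochondria, read -0.16, -0.35, -0.26, 0.11, -0.17 and -0.04 (-0.15 ± 0.12). Dnajc15 (0.09 ± 0.18), Dnajc30 (-0.06 ± 0.29) and Dnajc4 (0.17 ± 0.08) had intervals that spanned 0. Of the 9 members assigned to mitochondria, 1 rose, 2 fell and 6 did not pass, against 14.8% higher and 12.2% lower over all probes tested.

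Among members assigned to the endoplasmic reticulum, 9 tested probes for 7 genes gave 0 calls by limma, with 1 unadjusted p under 0.05, that of Dnajc10. Hsp90b1, the HSP90 of this compartment, read 0.05, -0.69, 0.25, 0.10, 0.17 and 0.07. On 5 of 6 arrays it was above 0, the treated-in-Cy5 array of set 2 was far below, and the mean was -0.01 ± 0.22 (limma, adjusted p = 0.965). Dnajc1 averaged 0.04 ± 0.07 on its complete probe. The median over the 9 tested probes, 0.15, compares with -0.01 for all probes tested, with no test between them. The assignment to compartments was made from textbook knowledge and may be incomplete. Dnajb12 (-0.18 ± 0.15 on probe 12959) and Dnajc14 (0.16 ± 0.07) were not placed in this group and did not pass.

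The cytosolic HSP90 genes could hardly be measured. Hsp90aa1, the inducible form, read 0.25 and 0.35 in Cy5 and 0.21 and 0.11 in Cy3 on probe 1021, with 2 arrays at 0, and 0.34 on the only array with a value for probe 12530. All 5 values were above 0, but neither probe had 2 complete sets and neither was tested. Hsp90ab1 was not analysed here.

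Small HSPs, which capture unfolding proteins without ATP, gave 2 testable probes of 6, and neither passed by limma (0 with an unadjusted p under 0.05). Hspb1, the HSP27 homologue, read 0.05, -0.71, -0.24, 0.06, 0.13 and 0.25 and averaged -0.08 ± 0.18. Hspb7, a heart and muscle form, averaged -0.09 ± 0.26. Hspb8, which works with Bag3 in autophagy, read 0.12, -0.31, -0.24, -0.07 and -0.54, with the treated-in-Cy5 array of set 3 missing. Hspb2, Hspb3 and Hspb9 lacked the same array, Hspb2 also the treated-in-Cy3 array of set 3, and their values ran from -0.57 to 0.68.

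The treated-in-Cy5 array of set 3 held 10 of the 24 missing values of members, more than any other array. Of the 13 untested member probes 10 had no value on it, and 6 of these lacked only that array. When probes with both orientations in at least 2 sets were tested as well, 10 of the 13 could be tested and 0 passed in limma (0 with an unadjusted p under 0.05). Their means lay between -0.17 and 0.12 and their lowest adjusted p was 0.402. Over that fit 24.5% of all probes passed.

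The dye orientations were compared probe by probe, since small ratios can be set by the dye. The dye effect (the difference between orientations divided by 2) gave 0 member probes past the threshold by limma (14 with an unadjusted p under 0.05), and 0.181% of all probes passed. The means of both orientations had the same sign in 36 of the 53 members, including all 11 that passed. Dnajc7, which binds HSP70 and HSP90 together, was above 0 on all 3 arrays with treated RNA in Cy5 on probe 7428 (0.19, 0.26 and 0.29) and below 0 on the other 3 (-0.16, -0.26 and -0.06). Its second probe averaged 0.13 ± 0.13 and did not pass. Dnajc5b averaged 0.27 in Cy5 and -0.34 in Cy3, with both signs in each orientation. Dnajc5, the synaptic vesicle J protein also called CSP, averaged 0.30 ± 0.31 without passing (limma, adjusted p = 0.109).

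**Figure D5:**
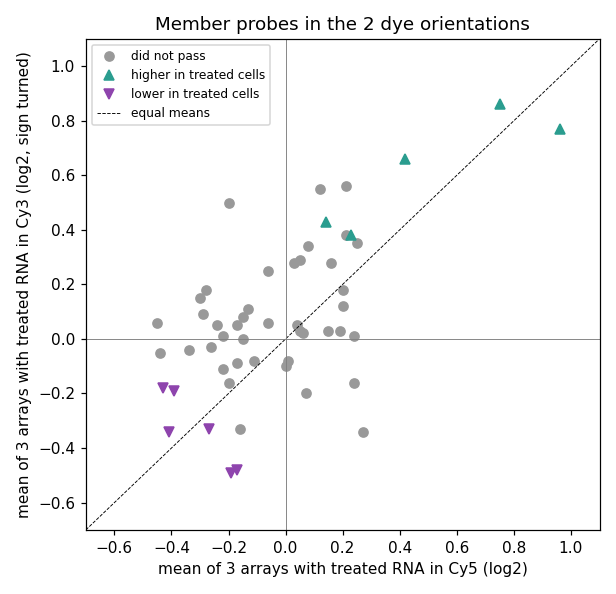
Mean log2 ratio of the 53 tested member probes over the 3 arrays with treated RNA in Cy5 (x axis) and over the 3 with treated RNA in Cy3 (y axis, sign turned), with triangles for probes that passed and a dashed line of equal means. The 11 probes that passed lie where both means have the same sign, and 17 of the others do not.

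The partners of these chaperones were read from lists of related genes. The heat shock factors and their regulators (Hsf2, Hsf4, Hsf2bp and Hsbp1) gave 0 calls by limma among 4 probes (0 with an unadjusted p under 0.05), with means from -0.12 to 0.10. Nucleotide exchange factors, which reset HSP70 after each cycle, gave 0 of 10 (0 with an unadjusted p under 0.05), Bag3 at 0.11 ± 0.01 among them. Hyou1, the HSP110 relative of the endoplasmic reticulum, is in that list but lacked the treated-in-Cy3 array of set 1 on probe 16145, which read -0.34, -0.56, -0.76, -0.06 and -0.77. It was lower, at -0.54, when 2 complete sets sufficed (limma, adjusted p = 0.0167), and was singled out after its values were seen. The cytosolic chaperonin TRiC and prefoldin gave 0 of 13 (1 with an unadjusted p under 0.05), with a lowest mean of -0.28 ± 0.23 for Pfdn2.

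Other HSP90 and HSP70 co-chaperones went both ways, 2 of 22 probes higher and 4 lower, with a median of -0.08. Of all probes tested 14.8% were higher and 12.2% lower. The phosphatase Ppp5c fell on both probes, which share a source sequence, by 0.44 ± 0.10 and 0.30 ± 0.16 on the log2 scale (limma, adjusted p = 0.00757 and 0.048). Stub1, the ubiquitin ligase CHIP that marks chaperone clients for destruction, fell by 0.31 ± 0.06 (limma, adjusted p = 0.0278). Sugt1, an HSP90 partner of innate immune receptors, rose by 0.37 ± 0.24 (limma, adjusted p = 0.0352). Stip1, which ties HSP70 to HSP90, passed in opposite directions on 2 probes that the annotation gives the same source sequence, 0.32 ± 0.18 on 18511 and -0.34 ± 0.08 on 17381 (limma, adjusted p = 0.041 and 0.0202), so no direction can be given for the gene. Each value came mostly from 1 dye orientation. Probe 18511 averaged -0.12 with treated RNA in Cy5 and 0.76 in Cy3, and probe 17381 -0.66 and -0.03. The dye effect did not pass on either (limma, adjusted p = 0.122 and 0.103). Leaving out 1 set ended each of these calls at least once: without set 2 for Ppp5c (adjusted p = 0.0527 and 0.208), both Stip1 probes (0.161 and 0.0994), Stub1 (0.104) and Sugt1 (0.0881), without set 1 for the second Ppp5c probe (0.122), Stip1 probe 17381 (0.0525), Stub1 (0.111) and Sugt1 (0.208, at 0.23), and without set 3 for Stip1 probe 18511 (0.181) and Stub1 (0.0574). With zeros kept as values, the calls of Ppp5c, Stip1 and Sugt1 were lost as well (limma, adjusted p = 0.0527 to 0.181).

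Among other mitochondrial chaperones and proteases, 3 of 10 probes, for 2 genes, rose and 0 fell, against 14.8% and 12.2% of all probes tested. They were the protease Lonp1 (0.33 ± 0.21, limma, adjusted p = 0.0449) and both probes of the inner membrane protease Yme1l1 (0.55 ± 0.49 and 0.46 ± 0.42, limma, adjusted p = 0.0374 and 0.0464). The set means of Yme1l1 were 1.11, 0.30 and 0.23 on one probe and 0.94, 0.21 and 0.23 on the other, so set 1 stood above the other sets. Without set 1 they averaged 0.27 and 0.22 and did not pass (limma, adjusted p = 0.148 and 0.233), nor did they without set 2 (0.0791 and 0.0746) or with zeros kept (0.275 and 0.278). The call of Lonp1 was lost without set 1 or 3 (limma, adjusted p = 0.162 and 0.181) and with zeros kept (0.176). Leaving out the treated-in-Cy3 array of set 2 ended the calls of Yme1l1 and Lonp1, and those of Stip1, Stub1, Sugt1 and the second Ppp5c probe. Htra2, a protease of the intermembrane space, was at -0.30 ± 0.16 on probe 1879 (limma, adjusted p = 0.0506) and passed when probes with 2 complete sets were tested too (0.0492). Its other probe, 12271, averaged 0.07 ± 0.23 and did not pass (limma, adjusted p = 0.666), so the fall was not seen on both probes. Trap1, the mitochondrial HSP90, was at -0.21 ± 0.18 without passing. Clu, which encodes the secreted chaperone clusterin, rose 3.63-fold (1.86 ± 0.32, limma, adjusted p = 1.75e-05), above every member, and passed in all 16 other settings. The crystallins Cryab (-0.10 ± 0.26) and Cryaa (0.25 ± 0.21), relatives of the small HSPs, did not pass.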

How the data were processed

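The deposited series table holds log ratios in 6 columns, 1 per array, for 16281 probes, read here as log2 of Cy5 over Cy3. No source used here gives the base, scanner, background correction or normalization. The direction rests on the dyes named in the labels, and the deposited median was 0 on every array. All value columns were mapped to a sample (0 left over). The 3 arrays with treated RNA in Cy3 had their sign turned, exact zeros were set to missing, both orientations of a set were averaged, and limma 3.58.1 (R 4.3.3; lmFit, eBayes, two-sided) tested whether the mean over 3 sets was 0 on the 12724 probes with 6 values, with Benjamini-Hochberg adjustment. With 3 sets, the array number sets the precision. Members and lists were chosen with earlier results of these data known. No set test was run. The text gives every array for 25 of 26 panel genes and for other members past the threshold, and up to 3 probes past the threshold in each direction for each related list, with the second Ppp5c probe and Hyou1 added after their values were seen. The procedure was run on simulated set means that were independent, held no zeros and had a dye term that cancelled exactly. That run therefore does not bear on the zeros, the pairing of arrays or the dye effects of these data. Gene symbols are those of the platform annotation, and RefSeq promoter windows, matched by symbol, were used for 42 of 52 genes. Alternatives covered zeros, the probes tested, the gene level, centring, scaling, the replicate block, the prior and each array or set left out.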

Additional observations from a re-analysis of the deposited data

Results flagged for a closer look

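In 4 member probes every array of one dye orientation read one way and every array of the other orientation the opposite way. The difference between orientations, divided by 2, was -0.19, -0.23 and -0.15 for Dnajc2 (probes 13807, 15625 and 539) and 0.20 for Dnajc7 (probe 7428). The test of that difference did not pass (limma, adjusted p = 0.163, 0.0977, 0.155 and 0.109). Dnajc2 averaged between -0.29 and -0.24 on these probes with treated RNA in Cy5 and between 0.05 and 0.18 in Cy3.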

How the results depend on the processing

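Over the alternatives, 3 of the 11 calls held in all 16 fits over probes, those of Dnajb4 (both probes) and Dnajb2, and no named member past the threshold changed sign. With zeros kept as values, 4 member probes were higher and 0 lower (limma; those higher were both Dnajb4 probes, Dnajb2 and Dnajc12), against a background of 5.55% and 3.1%, and the related lists gave 2 higher and 1 lower. With the arrays centred and scaled, 5 member probes were higher and 3 lower, against 14.4% and 10.8% of all probes. Of 62 list probes, 3 were higher and 3 lower in that fit. With at least 1.5-fold required, 2 member probes were higher and 0 lower. Per gene, 4 members were higher and 4 lower, and of 52 list genes 4 were higher and 2 lower. Pairing of the arrays by set number was clear only for set 1. The correlation of deviations was 0.528, 0.0773 and 0.167 for arrays of the same set (1, 2 and 3). For arrays of different sets it ran from -0.355 to 0.133. The value of set 2 lay inside that range and that of set 3 little above it, so pairing is uncertain there. With no replicate block (6 arrays as replicates with a dye term) 7 members were higher and 7 lower, against 17.6% and 16.1% of all probes, and with a random replicate block 5 and 7, against 14.8% and 11.9%. Leaving out 1 set gave 3 to 6 members higher and 0 to 3 lower, against 10.7% to 12.4% and 6.55% to 8.94% of all probes, and 2 to 4 list probes higher and 0 to 5 lower. Leaving out 1 array gave 3 to 4 members higher and 0 to 5 lower, against 9.21% to 13.2% and 6.44% to 10.8% of all probes, and 1 to 5 list probes higher and 1 to 4 lower. The cause of these shifts was not tested. Fewer set means leave fewer residual degrees of freedom, but the prior degrees of freedom that limma adds changed too. They were 6.334 in the main fit and 13.82, 4.944 and 10.85 without set 1, 2 and 3. A set with 1 array keeps its dye effect. The ratios carry no intensities, so signal over background could not be examined.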
